A study of Mus musculus with 7 samples.

Results

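The genes described here encode 35 non-collagen components of the extracellular matrix, chosen by a fixed list of symbols from the 24421 rows of a gene count table of mouse tumours. All 35 had a row, and all 35 passed the filter on low counts, which kept 13545 genes in all. Polyadenylated RNA was sequenced from 7 tumours, each from a separately named mouse. In 4 mice the treatment was anti-LAIR1 with anti-PD-1, and in 3 mice it was anti-KLH with anti-PD-1, so PD-1 blockade is shared by all 7 and the groups differ by LAIR1 blockade against a control antibody to keyhole limpet haemocyanin. All titles name week 4, and what starts that count is not said. The series text describes tumours under the skin of male and female 129/Sv mice, 6 to 8 weeks old when obtained, grown from the lung cancer line 344SQ, itself from mice with the K-rasLA1 allele and the p53 R172H mutation, with doses of 10 mg/kg for anti-LAIR and of 8 mg/kg for anti-PD-1. It also describes lung tumours of mice with KrasLSL-G12D and p53fl/fl, started by adenovirus-cre at 3 to 4 months of age and treated 2 months later. The labels do not say which of these the 7 tumours were, nor the sex or age of a mouse. The mouse names of all anti-LAIR1 tumours share a prefix that no control name has, so whatever the prefix stands for cannot be told apart from the treatment.

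LAIR1 is an inhibitory receptor of leukocytes that binds collagens, the fibre-forming part of the same matrix. Around the collagen fibres lie adhesive glycoproteins, proteoglycans that coat and space the fibrils, elastic fibres with their microfibrils, and matricellular proteins, which signal to cells more than they bear load. In tumours most of these are made by fibroblasts, and some, such as fibronectin, tenascin-C and osteopontin, also by cancer cells or macrophages. In bulk tissue a lower level of such a gene can come from fewer cells of a type or from less RNA per cell, and these cannot be told apart.

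Total counts ran from 11480651 to 15347403 in the anti-LAIR1 libraries and from 9879762 to 26255727 in the control libraries. The epithelial marker list summed to 4850 to 5853 CPM (counts per 1000000, with library sizes scaled by TMM) in anti-LAIR1 tumours, against 4747 to 5885 CPM in control tumours, and all 8 of its genes had counts. Among lung markers, Sftpb averaged 1754 CPM in anti-LAIR1 tumours, against 1361 CPM in control tumours, and Nkx2-1 averaged 158 CPM in anti-LAIR1 tumours, against 161 CPM in control tumours, while Sftpc and Scgb1a1 lay near 0 in both. Macrophage markers, 9 of 10 with a fold change above 0, summed to 365 to 478 CPM in anti-LAIR1 tumours, against 292 to 337 CPM in control tumours, and endothelial markers, 7 of 8 above 0, to 145 to 170 CPM in anti-LAIR1 tumours, against 107 to 142 CPM in control tumours. Skeletal muscle markers summed to 10.8, 0.399, 11.1 and 12.5 CPM in anti-LAIR1 replicates 1 to 4, against 1.15, 0.9725 and 1.73 CPM in control replicates 1 to 3. Adipocyte markers reached 91.9 CPM in anti-LAIR1 replicate 2 and at most 18.1 CPM in the other libraries, and skin keratinocyte markers reached 126 CPM in control replicate 3.

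No member passed the test for a difference between the treatments. edgeR's quasi-likelihood test over all 13545 genes gave 0 members with an adjusted p under 0.05, and 0 genes in the whole table (0% called). Unadjusted, 2 members had a p under 0.05, both nidogens and both higher with anti-LAIR1, which is 5.71% of the members beside 5.15% of all genes tested. DESeq2 and limma-voom likewise called 0 members, while over the whole table DESeq2 called 54 genes, 0.388% of those it adjusted, and limma-voom called 0. In this fit 16 members had a fold change above 0 and 19 below, beside 50.9% of all genes below, but 11 were below with the muscle marker level as a covariate and 13 without anti-LAIR1 replicate 4. The muscle markers summed to at least 10.8 CPM in anti-LAIR1 replicates 1, 3 and 4, and to at most 1.73 CPM in replicate 2 and the controls. That covariate therefore largely follows the treatment, and its fit separates them mainly through anti-LAIR1 replicate 2. The members' median log2 fold change of -0.01 in the main fit stood beside -0.003 for all genes. These counts describe the list and test nothing about it.

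The fit also bounds what could have been missed. For 25 of the 35 members the 95% interval of the fold change lay within a factor of 2 either way, 71.4% of members beside 81.7% of all genes. The narrowest intervals belonged to basement membrane and collagen-associated genes such as Agrn, Hspg2, Sparc and Pcolce. Wide intervals belonged to Efemp1, Ogn and Fmod, which averaged under 3 CPM, and to Thbs1 and Spp1, which were abundant but varied between tumours.

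**Figure D1:**
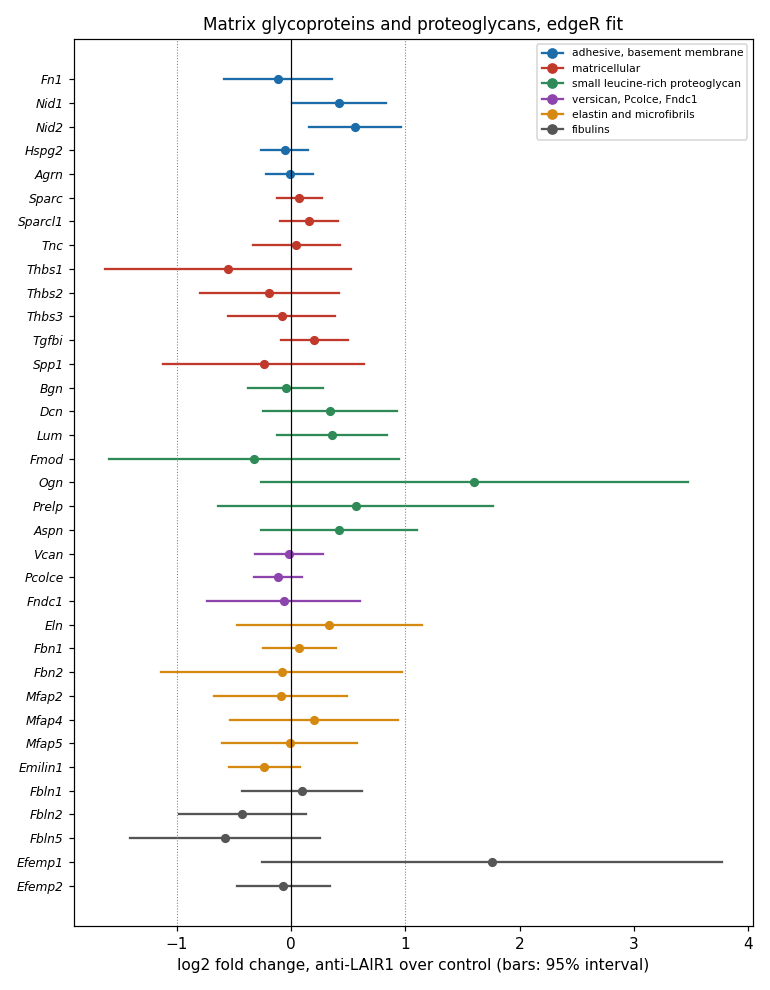
Log2 fold change of each of the 35 genes, anti-LAIR1 over control (x axis, log2 units), with bars for the 95% interval from the edgeR fit and colours for the role; dotted lines mark a factor of 2. Points lie on both sides of 0, and 25 of the 35 bars stay between the dotted lines.

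Levels differed far more between genes than between treatments. Per kilobase of exon, Spp1 and Fn1 were the most abundant members, at 1474 and 542 CPM per kb over all 7 tumours, followed by Fbln2 at 248, Bgn at 176 and Sparc at 151 CPM per kb. Agrn, Tnc and Thbs1 followed at 116, 112 and 107 CPM per kb. At the low end lay Ogn at 0.429, Efemp1 at 0.697 and Fmod at 0.779 CPM per kb. Without length correction, 3 members averaged above 1000 CPM, 11 between 100 and 1000 CPM, 12 between 10 and 100 CPM and 9 below 10 CPM. The 3 above 1000 CPM were Fn1, Spp1 and Fbln2, with the elastic fibre genes Eln, Mfap2 and Mfap4 and several small leucine-rich proteoglycans among the low ones.

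The adhesive and basement membrane genes held both members with an unadjusted p under 0.05. Fibronectin (Fn1), the main adhesive glycoprotein on which cells assemble other matrix, read 4857, 5555, 4572 and 2752 CPM in anti-LAIR1 replicates 1 to 4, against 5101, 4951 and 4379 CPM in control replicates 1 to 3. Anti-LAIR1 replicate 4 lay below every other tumour, and the remaining 3 anti-LAIR1 tumours overlapped the controls. The Fn1 log2 fold change was -0.12 (standard error 0.21, adjusted p = 1.00 by edgeR). Perlecan (Hspg2), the large heparan sulfate proteoglycan of basement membranes, read 852, 911, 926 and 884 CPM with anti-LAIR1, against 1046, 859 and 877 CPM in controls. The groups overlapped and the log2 fold change was -0.05 (standard error 0.09, adjusted p = 1.00 by edgeR). Agrin (Agrn), another heparan sulfate proteoglycan, averaged 902 ± 56.3 CPM (SD, n = 4) in anti-LAIR1 tumours, against 911 ± 78.0 CPM (SD, n = 3) in control tumours. Values after ± are SDs over the 4 anti-LAIR1 or the 3 control tumours throughout. The Agrn 95% interval ran from a fold of 0.860 to 1.14, among the tightest of the members.

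The nidogens link laminin and collagen IV networks in basement membranes. Nid2 read 14.9, 19.4, 25.04 and 19.5 CPM in anti-LAIR1 replicates 1 to 4, against 11.9, 14.0 and 14.4 CPM in controls. All 4 anti-LAIR1 tumours lay above all 3 controls, the nearest pair being anti-LAIR1 replicate 1 and control replicate 3. The log2 fold change was 0.56 (standard error 0.18, adjusted p = 0.868 by edgeR), and over the 14 alternative settings the adjusted p went no lower than 0.375, by DESeq2. Nid1 read 187, 182, 254 and 202 CPM with anti-LAIR1, against 116, 154 and 193 CPM in controls, where control replicate 3 lay inside the anti-LAIR1 range. Its log2 fold change was 0.42 (standard error 0.18, adjusted p = 0.966 by edgeR), and 0.24 without control replicate 1, the lowest tumour. The summed level of the endothelial markers, given above, was also higher in every anti-LAIR1 tumour than in every control, narrowly, at 145 against 142 CPM between the closest. Singly, 2 of the 8 endothelial genes had all anti-LAIR1 tumours above all controls, and 1, Cldn5, had them all below. The part of endothelial markers in the nidogen values was not tested.

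**Figure D2:**
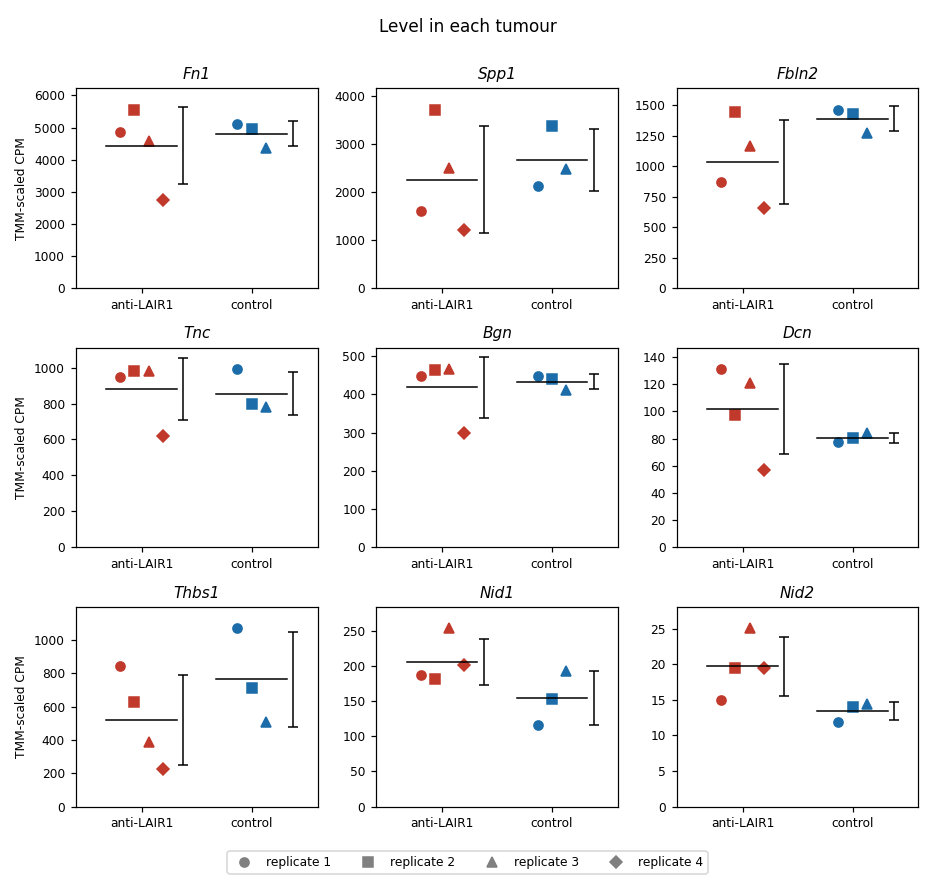
TMM-scaled CPM (y axes, from 0) of 9 genes in each tumour, anti-LAIR1 in red and controls in blue, with marker shapes for the replicate, horizontal lines for the group means and error bars of 1 SD (n = 4 and n = 3). Anti-LAIR1 replicate 4 (diamonds) is the lowest tumour for Fn1, Spp1, Fbln2, Tnc, Bgn, Dcn and Thbs1 but not for Nid1 or Nid2.

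The matricellular genes had fold changes on both sides of 0, and none passed the test. Osteopontin (Spp1), a secreted ligand of integrins and CD44 made by macrophages and tumour cells, read 1600, 3713, 2493 and 1206 CPM in anti-LAIR1 replicates 1 to 4, against 2129, 3382 and 2477 CPM in controls. Its range within the anti-LAIR1 group contained all controls. The log2 fold change was -0.24 (standard error 0.38, adjusted p = 1.00 by edgeR). It was 0.36 with the muscle marker level as a covariate, a level that largely follows the treatment. Tenascin-C (Tnc), an anti-adhesive glycoprotein of remodelling stroma, read 945, 979, 981 and 622 CPM with anti-LAIR1, against 992, 795 and 778 CPM in controls. Replicates 1 to 3 of the anti-LAIR1 group lay close together, with replicate 4 well below, and the log2 fold change was 0.04 (standard error 0.17, adjusted p = 1.00 by edgeR).

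Tgfbi, a TGF beta-induced integrin ligand, read 90.4, 88.8, 91.9 and 90.1 CPM with anti-LAIR1, against 60.2, 84.7 and 91.0 CPM in controls. The anti-LAIR1 values were close together and one control, replicate 1, lay apart from the others. The log2 fold change was 0.20 (standard error 0.13, adjusted p = 1.00 by edgeR), and 0.04 without control replicate 1. Sparcl1, a collagen-binding relative of Sparc, read 41.9, 45.1, 44.3 and 43.4 CPM with anti-LAIR1, against 34.2, 46.2 and 37.4 CPM in controls, with overlapping groups. Sparc, which binds collagen and aids its assembly, averaged 419 ± 33.8 CPM (SD, n = 4) in anti-LAIR1 tumours, against 399 ± 22.2 CPM (SD, n = 3) in control tumours.

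The 3 thrombospondins all had fold changes below 0 without passing the test. Thbs1, which binds CD47 and can activate latent TGF beta, is given in every tumour because its spread was large, a choice made after its values were seen. It read 843, 628, 385 and 227 CPM with anti-LAIR1, against 1070, 708 and 510 CPM in controls. The groups overlapped, 2 anti-LAIR1 tumours lying below all controls, and the log2 fold change was -0.55 (standard error 0.46, adjusted p = 1.00 by edgeR). Leaving out single libraries gave from -0.88 without anti-LAIR1 replicate 1 to -0.23 without control replicate 1. Thbs2 averaged 228 ± 72.4 CPM (SD, n = 4) in anti-LAIR1 tumours, against 259 ± 28.2 CPM (SD, n = 3) in control tumours, and Thbs3 averaged 24.0 ± 5.41 CPM in anti-LAIR1 tumours, against 25.3 ± 5.55 CPM in control tumours.

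Small leucine-rich proteoglycans bind collagen fibrils and set their diameter and spacing. Their 7 fold changes had a median of 0.36 on the log2 scale, with 5 above 0 and 2 below, and 0 had an unadjusted p under 0.05. Biglycan (Bgn) read 447, 464, 467 and 300.5 CPM in anti-LAIR1 replicates 1 to 4, against 449, 441 and 412 CPM in controls. The groups overlapped, with anti-LAIR1 replicate 4 below every other tumour, and the log2 fold change was -0.05 (standard error 0.15, adjusted p = 1.00 by edgeR). Decorin (Dcn), which also binds TGF beta, read 131, 97.2, 121 and 57.03 CPM with anti-LAIR1, against 77.2, 80.3 and 84.0 CPM in controls. The controls were tightly grouped, and 3 anti-LAIR1 tumours lay above them and replicate 4 below. The log2 fold change was 0.34 (standard error 0.25, adjusted p = 1.00 by edgeR), and 0.53 without that replicate (adjusted p = 0.742 by edgeR). Lumican (Lum) read 42.9, 43.2, 54.0 and 27.5 CPM with anti-LAIR1, against 27.8, 38.1 and 32.3 CPM in controls, the same arrangement of tumours. Its log2 fold change was 0.36 (standard error 0.21, adjusted p = 0.981 by edgeR).

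Osteoglycin (Ogn) was the weakest of the members, at 0.527, 2.93, 1.81 and 0.872 CPM with anti-LAIR1, against 0.158, 1.20 and 0.204 CPM in controls. In control replicate 3 its value lay below the 0.305 CPM that 3 counts are worth there, and the groups overlapped. The log2 fold change of 1.61 had a standard error of 0.83 (adjusted p = 0.980 by edgeR), and it was 1.04 without control replicate 1 and 3.08 without control replicate 2. Prelp, which anchors basement membrane to underlying connective tissue, averaged 7.17 ± 4.95 CPM (SD, n = 4) in anti-LAIR1 tumours, against 4.84 ± 2.20 CPM (SD, n = 3) in control tumours. Asporin (Aspn), a collagen-binding member that competes with decorin, averaged 4.72 ± 0.555 CPM in anti-LAIR1 tumours, against 3.57 ± 1.57 CPM in control tumours, and fibromodulin (Fmod) averaged 2.19 ± 1.49 CPM in anti-LAIR1 tumours, against 2.75 ± 1.34 CPM in control tumours.

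Pairs of these proteoglycans lie side by side in the genome (GRCm38). Dcn and Lum adjoin on chromosome 10 (97479500 to 97518163 and 97565501 to 97572703), Prelp and Fmod adjoin on chromosome 1 (133910304 to 133930102 and 134037254 to 134048280), and Aspn and Ogn flank Omd on chromosome 13 (49544443 to 49567565 and 49608015 to 49624501). These pairs and the nidogens, 4 in all, were compared across the 7 tumours on log2 CPM as a description. Permutation p-values were computed but are not read here, because the pairs were picked after their values were seen. Dcn and Lum had a Pearson r of 0.851 and a Spearman rho of 0.857, and r was 0.832 after centring each treatment group on its mean and 0.916 in the 5 tumours left after removing those farthest from the Dcn median. Nid1 and Nid2 had an r of 0.857 and a rho of 0.857, with r at 0.726 after centring and 0.5004 in 5 tumours. Aspn and Ogn had an r of 0.754 and a rho of 0.536, with r at 0.623 after centring and -0.078 in 5 tumours. In each pair the removed tumours were those farthest from the median of the first gene. This narrows that gene's range, which can by itself lower r. Fmod and Prelp had an r of 0.179 and a rho of 0.286, with r at 0.292 after centring and -0.437 in 5 tumours. Both genes of a pair were read from the same libraries at the same depth.

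Versican, the procollagen enhancer and Fndc1 did not pass the test, and their groups overlapped. Versican (Vcan), a large chondroitin sulfate proteoglycan that binds hyaluronan, read 144, 179, 170 and 137 CPM in anti-LAIR1 replicates 1 to 4, against 157, 187 and 134 CPM in controls. The ranges nearly coincided, and the 95% interval ran from a fold of 0.805 to 1.21. Pcolce, which speeds removal of the procollagen C-propeptide, read 143, 159, 154 and 155 CPM with anti-LAIR1, against 189, 153 and 153 CPM in controls. Apart from control replicate 1 the tumours were close, and the interval ran from a fold of 0.798 to 1.07. Fndc1, a protein with fibronectin type III domains, read 5.20, 9.84, 11.3 and 8.14 CPM with anti-LAIR1, against 7.84, 12.5 and 6.62 CPM in controls.

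Among elastin and microfibril genes, Emilin1 was the 1 member whose anti-LAIR1 tumours all lay below the controls. Emilin1, a glycoprotein at the interface of elastin and microfibrils, read 9.68, 10.2, 10.4 and 10.6 CPM with anti-LAIR1, against 10.7, 12.9 and 12.7 CPM in controls. The gap was narrow, 10.61 against 10.65 CPM between the closest tumours, and the log2 fold change was -0.24 (standard error 0.14, adjusted p = 0.980 by edgeR). With Nid2, which lay the other way, 2 members had groups that did not overlap, 5.71% beside 5.57% of all genes tested (3.06% higher and 2.51% lower), and under each of the 2 other scalings the count was 1. Fibrillin-1 (Fbn1), the backbone of microfibrils, read 202, 238, 250 and 181 CPM with anti-LAIR1, against 172, 238 and 211 CPM in controls, and its interval ran from a fold of 0.844 to 1.31. Fbn2, a fibrillin of developing tissue, read 8.16, 16.7, 31.7 and 27.1 CPM with anti-LAIR1, against 14.3, 30.1 and 22.1 CPM in controls. Both groups spread widely and overlapped.

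Elastin (Eln), the elastic core protein, read 5.20, 10.2, 4.49 and 4.50 CPM with anti-LAIR1, against 3.29, 4.94 and 6.62 CPM in controls. Only anti-LAIR1 replicate 2 exceeded the highest control, and the log2 fold change of 0.33 (standard error 0.36, adjusted p = 1.00 by edgeR) was -0.04 without it. Of the microfibril-associated genes, Mfap2 averaged 3.09 ± 0.485 CPM in anti-LAIR1 tumours, against 3.32 ± 0.621 CPM in control tumours. Mfap4 averaged 3.80 ± 1.37 CPM in anti-LAIR1 tumours, against 3.33 ± 0.907 CPM in control tumours, and Mfap5 20.5 ± 5.67 CPM in anti-LAIR1 tumours, against 20.5 ± 5.65 CPM in control tumours. Each of these differences was smaller than the SD within either group.

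Fibulins bridge elastic fibres, basement membranes and fibronectin. Fbln2 was the most abundant of them and read 867, 1444, 1163 and 656 CPM in anti-LAIR1 replicates 1 to 4, against 1463, 1429 and 1271 CPM in controls. Of the anti-LAIR1 tumours 3 lay below all controls and replicate 2 among them. The log2 fold change was -0.43 (standard error 0.24, adjusted p = 0.980 by edgeR). It was -0.63 without replicate 2, -0.26 without replicate 4 and -0.009 with the muscle marker level, which largely follows the treatment, as a covariate. Fbln5, needed for elastic fibre assembly, read 37.9, 52.5, 33.1 and 50.5 CPM with anti-LAIR1, against 102, 59.5 and 32.1 CPM in controls. The control group spanned the whole anti-LAIR1 range, and the log2 fold change of -0.58 (standard error 0.36, adjusted p = 1.00 by edgeR) was -0.08 without control replicate 1. Efemp1, a fibulin-like glycoprotein, was weakly expressed. It read 0.263, 3.59, 1.73 and 2.40 CPM with anti-LAIR1, against 0.119, 0.823 and 1.02 CPM in controls. It had 4 counts in anti-LAIR1 replicate 1 and 3 in control replicate 1, and from 10 to 54 in the other tumours. Its log2 fold change of 1.76 had a standard error of 0.89 (adjusted p = 0.980 by edgeR), and anti-LAIR1 replicate 1 lay below 2 of the controls. Fbln1, found in elastic fibres and basement membranes, averaged 12.8 ± 2.99 CPM (SD, n = 4) in anti-LAIR1 tumours, against 12.1 ± 2.81 CPM (SD, n = 3) in control tumours. Efemp2, which brings lysyl oxidase to elastin, averaged 44.0 ± 8.14 CPM in anti-LAIR1 tumours, against 45.9 ± 10.1 CPM in control tumours.

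The spread between tumours of the same group was wider for these genes than for a typical gene of the whole table. Other matrix genes were not compared in this way, so the spread is not shown to be particular to the members. The median SD within groups was 0.35 on the log2 CPM scale over the 35 members and 0.20 over all genes tested, and 29 members lay above the median of all genes. Among members above 100 CPM it was 0.26 over 14 members, beside 0.13 over 2422 genes of that level. At or below 100 CPM it was 0.42 over 21 members, beside 0.22 over 11123 genes. Without anti-LAIR1 replicate 4 the medians were 0.28 and 0.18, with 24 members above that of all genes.

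**Figure D3:**
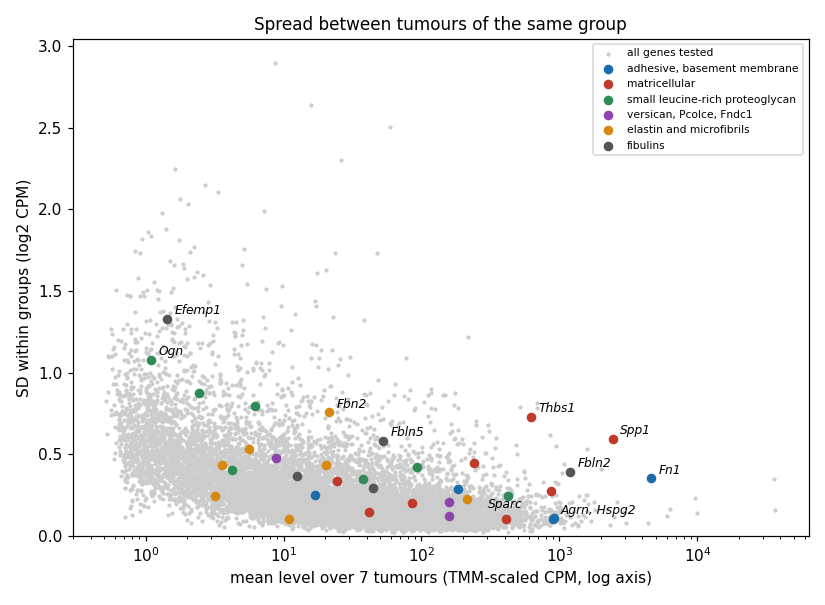
SD of log2 CPM within treatment groups (y axis) against the mean level in TMM-scaled CPM (x axis, log scale) for all 13545 tested genes (grey) and the 35 members (coloured by role). Thbs1, Spp1, Fbln2 and Fn1 stand above most genes of their level, while Sparc, Agrn and Hspg2 do not.

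The direction of this spread differed from tumour to tumour. Anti-LAIR1 replicate 4 held the lowest value of 10 members and the highest of 0. Those 10 were Fn1, Tnc, Thbs1, Thbs2, Spp1, Bgn, Dcn, Lum, Mfap5 and Fbln2. The share of all genes lowest or highest in each tumour is not given here, so such counts are not shown to be particular to the members. The median log2 deviation of the 35 members from their means was -0.066 in this tumour, -0.061 in anti-LAIR1 replicate 1 and -0.121 in control replicate 1. It ran from -0.038 to 0.159 in the other tumours. The summed level of the 35 members was 13232, 16575, 13990 and 9122 CPM in anti-LAIR1 replicates 1 to 4, against 15022, 15280 and 13420 CPM in controls. Fn1 and Spp1 supplied from 43.4% to 55.9% of that sum in every tumour, and without them it was still lowest in replicate 4, at 5164 CPM beside 6564 to 7792 CPM elsewhere. Fibroblast markers summed to 1940 CPM in replicate 4, 2311 to 3270 CPM in the other anti-LAIR1 tumours and 2714 to 2949 CPM in controls. Most of the sum in replicate 4 came from the collagen genes Col1a1, Col1a2 and Col3a1, at 623, 493 and 542 CPM, each its lowest value. Pdgfra, Lrrc15 and Col15a1 were also lowest there, while Thy1, Pdgfrb, Fap and Pi16 were not. The summed level of the lung epithelial markers was highest in the same tumour, at 3321 CPM. It was 1233 to 1742 CPM in the other anti-LAIR1 tumours and 1381 to 1678 CPM in controls. Most of it was Sftpb, at 3103 CPM in replicate 4. Nkx2-1 and Napsa were also highest there, at 210 and 5.88 CPM, while Sftpa1 and Sftpc were not. The part of fibroblast or lung epithelial markers in the member values was not tested.

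Anti-LAIR1 replicate 2 held the highest value of 8 members, among them Fn1 and Spp1 and the weakly expressed Ogn, Prelp, Eln, Efemp1 and Fbln1. It was also the tumour with adipocyte markers at 91.9 CPM, and their part in these values was not tested. Without it the log2 fold change of Prelp was -0.03 and that of Efemp1 was 1.29. Control replicate 1, the deepest library, held the highest value of 10 members, with Thbs1, Thbs2, Fbln2 and Fbln5 among these. It held the lowest of 11, among them Nid1, Nid2 and Tgfbi.

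**Figure D4:**
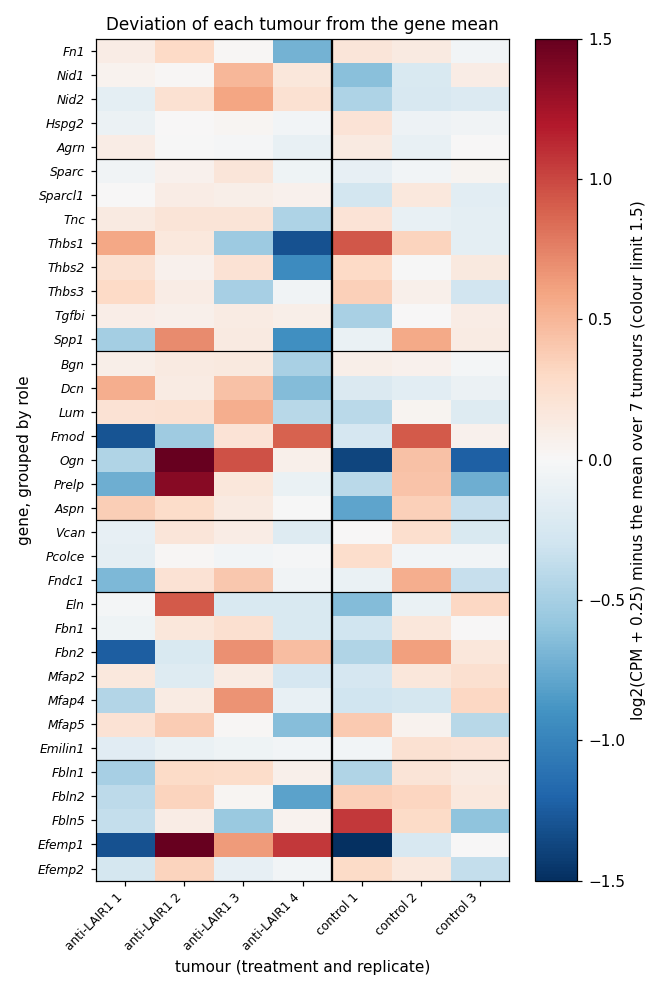
Colour shows log2(CPM + 0.25) of each gene (rows, grouped by role) in each tumour (columns, anti-LAIR1 left of the line and controls right) minus the gene's mean over 7 tumours, with colours limited at 1.5. Anti-LAIR1 replicate 4 is blue for Fn1, Tnc, Thbs1, Thbs2, Spp1, Bgn, Dcn, Lum, Mfap5 and Fbln2, and no column block separates the treatments.

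Promoter sequence was at hand for 25 of the 35 members in RefSeq (GRCm38.p6, the first listed window of each gene, 300 bases from 250 before to 50 after a start site). For 14 of the 25, Bgn, Thbs2 and Nid1 among them, that site is the start of the RefSeq gene, while the Fbln2 window is placed on a site 304 bases downstream of it. Shown are 3 members that were lowest in anti-LAIR1 replicate 4, and Nid1, which was not, to set their sequences side by side. Capitals mark matches on either strand to any of 5 short motifs that are common in mammalian promoters. The TATA box, which positions the start of transcription, was searched as TATAAA. The AP-1 element, bound by Fos and Jun proteins, was searched as TGANTCA with any base at N. The GC box, bound by Sp1 and its relatives, was searched as GGGCGG. The CCAAT box was searched by the letters of its name. The SMAD element, bound by the transducers of TGF beta signals, was searched as CAGACA, and no match says only that these letters are not in the window.
Bgn, chrX:73483351-73483650, plus strand: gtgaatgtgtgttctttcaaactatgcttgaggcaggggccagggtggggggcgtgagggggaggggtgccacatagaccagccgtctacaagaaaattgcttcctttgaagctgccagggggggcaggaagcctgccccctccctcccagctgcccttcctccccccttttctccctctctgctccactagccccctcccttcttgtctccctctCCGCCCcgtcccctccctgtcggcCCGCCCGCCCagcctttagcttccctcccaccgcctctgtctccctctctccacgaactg
Thbs2, chr17:14694213-14694512, minus strand: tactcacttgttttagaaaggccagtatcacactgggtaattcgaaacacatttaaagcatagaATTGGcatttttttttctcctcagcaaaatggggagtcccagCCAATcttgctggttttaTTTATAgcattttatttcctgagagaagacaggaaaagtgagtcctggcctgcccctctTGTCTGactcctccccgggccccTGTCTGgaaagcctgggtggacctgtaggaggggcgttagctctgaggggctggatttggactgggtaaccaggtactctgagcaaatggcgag
Fbln2, chr6:91212514-91212813, plus strand: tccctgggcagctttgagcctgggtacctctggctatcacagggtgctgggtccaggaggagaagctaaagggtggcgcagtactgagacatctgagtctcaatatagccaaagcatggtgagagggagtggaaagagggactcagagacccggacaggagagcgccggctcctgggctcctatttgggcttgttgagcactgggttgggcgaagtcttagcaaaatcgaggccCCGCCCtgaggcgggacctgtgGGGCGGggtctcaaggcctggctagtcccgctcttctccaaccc
Nid1, chr13:13437352-13437651, plus strand: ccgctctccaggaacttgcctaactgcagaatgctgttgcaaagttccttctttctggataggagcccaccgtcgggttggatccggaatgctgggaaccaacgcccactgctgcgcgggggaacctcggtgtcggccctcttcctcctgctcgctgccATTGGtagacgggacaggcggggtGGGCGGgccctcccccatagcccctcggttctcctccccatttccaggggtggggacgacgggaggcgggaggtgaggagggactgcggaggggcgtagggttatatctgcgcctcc
Bgn held 3 GC boxes, Fbln2 held 2 and Nid1 held 1 with 1 CCAAT box, while Thbs2 held none and had 1 TATA box, 2 CCAAT boxes and 2 SMAD elements. None of the motifs was found in all 3 of the shown members that were lowest in anti-LAIR1 replicate 4. These 3 are part of the 10 members lowest there and were picked after their values were seen. The absence of a shared match therefore tests nothing. A GC box was present in 16 of the 25 member promoters, 64.0% beside 35.7% of all 32851 promoter windows listed, and a TATA box in 6, 24.0% beside 13.6%. These sets are unlike. Members were counted on the first listed window of each gene, while the share over all windows includes every window of a gene. Of the members, 7 had more than 1 window. The CCAAT box was in 10 (40.0% beside 37.4%), the SMAD element in 7 (28% beside 21.04%) and the AP-1 element in 1 (4.0% beside 7.81%). Matches of overlapping motifs were counted separately, and a match is a description, not a binding site.

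Other genes of the same matrix system gave 0 calls in each list. Of 41 tested glycoproteins outside the members, 15 had a fold change above 0 and 26 below, with a median of -0.11 on the log2 scale, 1 higher and 4 lower at an unadjusted p under 0.05, beside 3.51% and 1.63% of all genes. Tenascin-X (Tnxb), which organises collagen fibrils, read 16.4, 38.9, 12.95 and 26.8 CPM with anti-LAIR1, against 6.77, 8.45 and 9.26 CPM in controls. Its groups did not overlap, and the log2 fold change was 1.56 (standard error 0.38, adjusted p = 0.652 by edgeR). Cyr61, a matricellular protein induced by mechanical and growth factor signals, averaged 103 ± 21.7 CPM (SD, n = 4) in anti-LAIR1 tumours, against 165 ± 45.3 CPM (SD, n = 3) in control tumours, and its log2 fold change was -0.68 (standard error 0.22, adjusted p = 0.879 by edgeR). Of 13 other tested proteoglycans 10 were above 0, with a median of 0.20. Osteomodulin (Omd), the neighbour of Aspn and Ogn, averaged 1.02 ± 0.190 CPM in anti-LAIR1 tumours, against 0.441 ± 0.123 CPM in control tumours, and Esm1, an endothelial proteoglycan, 1.64 ± 0.327 CPM in anti-LAIR1 tumours, against 0.735 ± 0.544 CPM in control tumours (adjusted p = 0.933 and 0.954 by edgeR).

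Of 27 tested genes of glycosaminoglycan synthesis, 8 were above 0 and 19 below with a median of -0.03. Chst12, a chondroitin sulfotransferase, averaged 31.9 ± 3.09 CPM in anti-LAIR1 tumours, against 41.8 ± 5.59 CPM in control tumours, and Chsy3, a chondroitin synthase, 76.1 ± 20.97 CPM in anti-LAIR1 tumours, against 112 ± 33.6 CPM in control tumours (adjusted p = 0.866 and 0.974 by edgeR). The 22 receptors of matrix glycoproteins had a median of -0.01. Itga9, an integrin chain that binds tenascin-C and osteopontin, averaged 20.1 ± 1.53 CPM in anti-LAIR1 tumours, against 16.1 ± 0.754 CPM in control tumours, and Itga4, a fibronectin-binding chain of leukocytes, 13.3 ± 3.96 CPM in anti-LAIR1 tumours, against 8.61 ± 2.15 CPM in control tumours (adjusted p = 0.933 and 0.944 by edgeR). Of 22 tested genes of matrix assembly and cleavage, 9 were above 0 and 13 below with a median of -0.04. Adamts12, a secreted metalloproteinase, averaged 32.3 ± 7.04 CPM in anti-LAIR1 tumours, against 44.1 ± 6.31 CPM in control tumours, and Tgm2, a crosslinking transglutaminase, 379 ± 90.9 CPM in anti-LAIR1 tumours, against 273 ± 79.7 CPM in control tumours (adjusted p = 0.944 and 0.980 by edgeR).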

How the data were processed

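Tumour RNA of 7 mice was extracted with Trizol, cleaned on a column, and directional polyadenylated libraries were sequenced as single reads of 100 bases, per the labels' protocols. The authors deposited raw read counts per gene symbol, 1 column per mouse, and the tools named in the submitters' processing notes are STAR 2.7.6, featureCounts 2.0.1, Trim Galore and edgeR 3.40.1, with mm10 as build. Not given in the sources used here are the annotation, the strand setting and the handling of multiply mapped reads, so counts of overlapping genes are uncertain.

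The tests used edgeR 4.0.16 under R 4.3.3 (filterByExpr, minimum count 10, TMM, robust quasi-likelihood fit of 7 libraries without covariates, Benjamini-Hochberg adjustment over all genes, threshold 0.05). Fold changes are anti-LAIR1 over control, intervals come from the fit's SE, and 3 counts were worth 0.119 to 0.305 CPM per library. Mice are separately named, but no litter, cage or date is given. DESeq2 1.42.0 and limma 3.58.1 were alternatives, besides scaling, filters, a muscle covariate and leaving out each library. Exon lengths came from GENCODE M21 (GRCm38), coordinates and promoters from RefSeq. The code was tested on simulated data. Figures used matplotlib 3.10.9. Members, roles and lists were chosen with earlier results of these data known. Per-tumour values are given for the 2 most abundant members and the 2 with the smallest p in each role, and from each other matrix list the 2 genes with the smallest p are named. Values per tumour of Thbs1 and of the promoters' genes were picked after they were seen.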

Additional observations from a re-analysis of the deposited data

Results flagged for a closer look

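In the anti-LAIR1 group, 3 of the 35 members had a tumour set apart from the other 3 by more than 0.829 of the group's range, a gap that chance gives in about 1 group in 20 and that 5.72% of all 13545 genes tested showed. The count is near that background and is no result about the members. Tnc read 622 CPM in replicate 4 and 945 to 981 CPM in the others. Bgn read 300.5 CPM in replicate 4 and 447 to 467 CPM in the others. Eln read 10.2 CPM in replicate 2 and 4.49 to 5.20 CPM in the others. Groups of 3 were not examined in this way.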

How the results depend on the processing

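The count of members called was 0 in the main fit and under all 14 alternatives, and the median log2 fold change of the members stayed within 0.206, the SD of their mean level within groups, ranging from -0.04 without anti-LAIR1 replicate 2 to 0.18 with the muscle covariate. Over all genes 0 were called, but 54 by DESeq2, and without single libraries from 0 to 3, the 3 without anti-LAIR1 replicate 2. Members with an unadjusted p under 0.05 numbered 2, and 4 with the muscle covariate, a level that largely follows the treatment. Without single libraries there were from 1 to 4, the 1 without anti-LAIR1 replicate 3 or control replicate 1 and the 4 without control replicates 2 or 3. The share of all genes with such a p is given only for the main fit, so the other counts cannot be set beside it. Members whose groups did not overlap numbered 2, and 1 with DESeq2 size factors, with library totals, with no count filter and with at least 1 CPM in 3 libraries. Without single libraries there were from 2 to 5, with 4 without anti-LAIR1 replicate 4 and 5 without control replicates 2 or 3. Groups with fewer tumours separate more easily, and the share of all genes under these settings is not given here. The higher counts are therefore no result about the members. For no member did a called value change sign, since none was called. For 10 members the 95% interval reached past a factor of 2 in at least one direction. Members with a fold change below 0 numbered 19, and from 11 with the muscle covariate to 21 without anti-LAIR1 replicate 2. No paired analysis was possible because the mouse names carry no number shared between the groups.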
